A study of Homo sapiens with 6 samples.

Results

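Small-subunit cytosolic ribosomal protein genes were examined for Myc occupancy at their promoters in parental MDA-MB-231 cells and in cells of the same line that lack TXNIP. MDA-MB-231 is a human triple-negative breast cancer cell line. The members were all protein-coding genes with symbols of RPS plus a number, together with RPSA and FAU, and excluded pseudogenes and the S6 kinases. This gave 35 of 19785 protein-coding genes with a basic start site in the annotation (GENCODE lifted to GRCh37, the hg19 build of the peak lists). By the place of the protein in the 40S subunit, 14 genes encode proteins of the head, 18 encode proteins of the body and platform, and 3 are paralogs (RPS4Y1, RPS4Y2 and RPS27L).

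Myc ChIP-seq was performed with the antibody D3N8F in 2 libraries of unedited parental cells (parental) and 2 libraries of cells whose TXNIP gene was deleted with CRISPR/Cas9 (TKO), and 2 input libraries served as controls. The TKO cells came from clones isolated from single cells, so clonal differences and loss of TXNIP cannot be told apart here, and Myc peak lists hold no check of the deletion itself. The study calls the 2 libraries of a group biological replicates. The lists held 3720 and 5719 peaks in the parental libraries and 27213 and 25887 in the TKO libraries. Recovered depth was 26.4 M and 22.2 M reads in the parental libraries and 19.95 M and 13.04 M in the TKO libraries, so the longer TKO lists came from the shallower libraries. With 2 libraries against 2, the exact two-sided permutation test has 6 splits and cannot give a p below 0.333, so no difference between parental and TKO cells could pass 0.05.

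The 40S subunit is the small part of the cytosolic ribosome, which binds the mRNA and reads its codons. Its proteins are assembled on the 18S rRNA in the nucleolus, nucleus and cytoplasm with the help of assembly factors, and their genes are long-established targets of Myc, a transcription factor that binds DNA with its partner MAX and prefers the E-box CACGTG. Messenger RNAs of ribosomal proteins typically begin with a C followed by pyrimidines, the 5′ terminal oligopyrimidine (TOP) motif, through which mTOR signalling controls their translation. The choice of members used neither motif.

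The start sites were compared by sequence first. A run of at least 5 pyrimidines on the sense strand, starting within 5 bases of a start site, was present at 34 of 35 members counting any basic start site (97.1%), against 49.2% of all protein-coding genes. The exception was RPS4Y2. At the MANE Select start site alone, the 1 start chosen as representative for each gene, 31 of 35 members had such a run (88.6%), against 30.7% of genes. Requiring a C as first base left 32 of 35 members at any basic start site (91.4% against 38.2%) and 29 at the MANE Select start site (82.9% against 22.2%). In those 29 the run was 7 to 15 bases long, with a median of 11. The large-subunit (RPL) genes were alike, with 46 of 50 (92.0%) at any basic start site. Below are the starts of 10 members described in the results, 30 bases each on the sense strand with the 11th base as the MANE Select start, to show the C-led run in capitals where there is 1. RPS15 and RPS27L have none, and RPS21 has the longest.
RPSA: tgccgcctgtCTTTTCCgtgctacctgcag
RPS18: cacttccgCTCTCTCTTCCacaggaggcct
RPS23: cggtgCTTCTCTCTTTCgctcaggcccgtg
RPS12: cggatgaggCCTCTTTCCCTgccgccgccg
RPS21: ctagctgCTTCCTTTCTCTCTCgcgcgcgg
RPS2: aggtctcgttCTTCTTTTCCgacaaaacac
FAU: tcgcttCTTCCTCTTTCTCgactccatctt
RPS27: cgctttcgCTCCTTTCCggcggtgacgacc
RPS15: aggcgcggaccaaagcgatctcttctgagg
RPS27L: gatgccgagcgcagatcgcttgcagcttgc
In GRCh37 these lie at chr3:39448201-39448230 (+) for RPSA, chr6:33239842-33239871 (+) for RPS18, chr5:81574154-81574183 (-) for RPS23, chr6:133135698-133135727 (+) for RPS12, chr20:60962149-60962178 (+) for RPS21, chr16:2014808-2014837 (-) for RPS2, chr11:64889587-64889616 (-) for FAU, chr1:153963228-153963257 (+) for RPS27, chr19:1438385-1438414 (+) for RPS15 and chr15:63449657-63449686 (-) for RPS27L.

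A Myc summit within 1 kb of a start site, called a promoter peak here, was found at nearly all members in every library. It was present at 33, 30, 33 and 33 of the 35 genes in parental replicates 1 and 2 and TKO replicates 1 and 2. The shares were 94.3% (exact 95% interval 80.8% to 99.3%), 85.7% (69.7% to 95.2%), 94.3% and 94.3%. Over all protein-coding genes the shares were 12.2% and 12.9% in the parental libraries and 49.1% and 49.7% in the TKO libraries. All 4 lists held a promoter peak at 30 of the 35 members, against 9.32% of all genes, and both TKO lists did at 33, against 45.2%. The mean number of members was 31.5 ± 2.12 in the parental libraries and 33 ± 0 in the TKO libraries (SD, n = 2 libraries), a ratio of 1.05 that did not exceed the spread between libraries (exact permutation test, two-sided, p = 1). No member had a promoter peak in both TKO lists and in neither parental list.

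**Figure D1:**
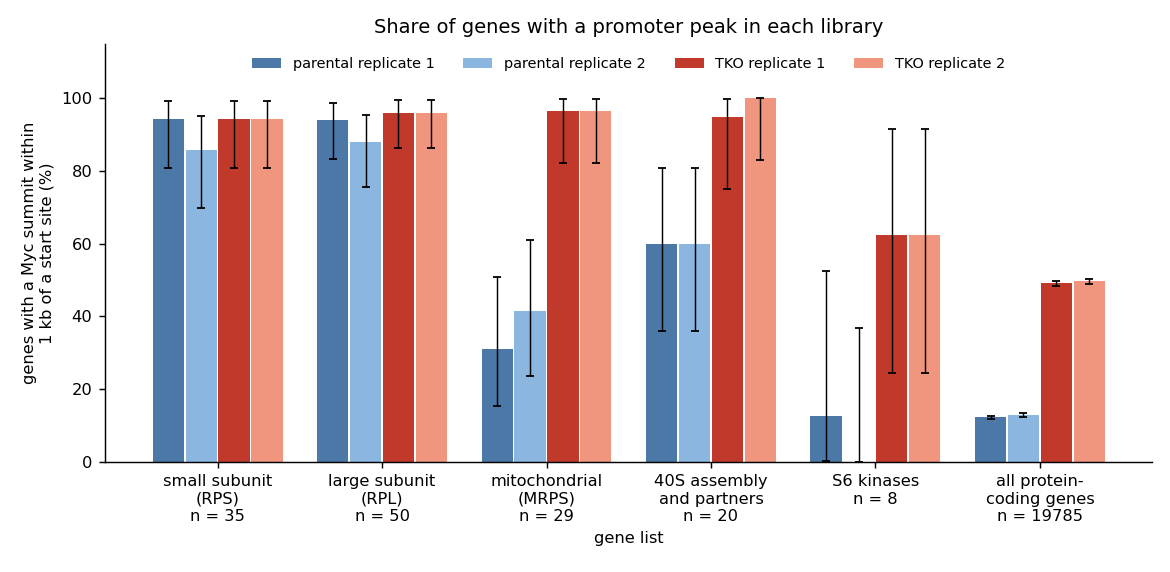
Percent of genes (vertical axis) with a Myc summit within 1 kb of a start site, by gene list (horizontal axis) and library (colour), with exact 95% intervals as lines. Small-subunit and large-subunit genes stand between 85.7% and 96.0% in all 4 libraries, while all protein-coding genes stand at 12.2% to 12.9% in parental and 49.1% to 49.7% in TKO libraries.

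Of the members that lacked a promoter peak somewhere, RPS4Y1 and RPS4Y2, the Y-linked copies of RPS4X, lacked it in all 4 lists. Their nearest peaks were at least 134091 bp away in every list. On the whole Y chromosome there were 1 and 3 peaks in the parental lists and 17 and 15 in the TKO lists. Whether these cells carry a Y chromosome was not tested. RPS27 and RPS27L lacked a peak in parental replicate 2 alone, where their nearest peaks were 22890 and 48497 bp away. RPS27, a zinc-finger protein of the platform, had 39 summit reads in parental replicate 1, 77 in TKO replicate 1 and 40 in TKO replicate 2, and RPS27L, its p53-inducible paralog, had 25, 46 and 37. The exact Poisson interval for the 25 reads of RPS27L ran from 16.2 to 36.9. Intervals on reads cover counting error only. The reads carry no molecular identifiers, so the intervals take no account of duplicate reads.

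Reads from sequence that is repeated in the genome cannot be assigned to 1 place. At RPS10, 21.0% of the 452 stretches of 50 bases, the read length, that fit within 250 bp of the start site occur more than once in GRCh37, so its values are given as uncertain. No stretch around the start site was repeated at 28 members.

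Related gene lists differed in how many genes had a promoter peak. The RPL genes resembled the RPS genes, with 47, 44, 48 and 48 of 50 in parental replicates 1 and 2 and TKO replicates 1 and 2. The mitochondrial small-subunit genes (MRPS), whose proteins form the separate ribosome of the mitochondrion, numbered 9, 12, 28 and 28 of 29. The genes for 40S assembly and partner proteins, among them BYSL, NOB1 and the RIOK kinases, numbered 12, 12, 19 and 20 of 20. The S6 kinase genes (RPS6K), named for the kinases that phosphorylate RPS6, numbered 1, 0, 5 and 5 of 8. Each TKO count was above each parental count in these 4 lists, by 1 to 4 genes among the RPL genes and by 16 to 19 among the MRPS genes. That was not so for the RPS genes, since parental replicate 1 had as many as the TKO libraries. These 33 were all the members bound in any list, so a TKO count could be higher only through RPS4Y1 or RPS4Y2. Counting only peaks with a fold of at least 5, parental replicates 1 and 2 had 25 and 20 RPS genes. Both TKO replicates had 33, so at that fold the TKO counts exceeded the parental ones. Neither all protein-coding genes nor the RPL genes were counted at that fold. Over the 1843 genes bound in all 4 lists, the TKO to parental ratio of fold had a median of 1.998. The higher TKO counts therefore cannot be read as particular to the RPS genes.

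The height of the promoter summit was higher in TKO than in parental libraries at every member bound in all 4 lists. Height is given as the summit pileup over the genome background of the same library, a ratio that is free of sequencing depth. The background also scales with the fragment extension, taken as the narrowest peak of the list. That was 140 and 151 bp in the parental and 182 and 201 bp in the TKO libraries, and its part in the difference was not tested. Each gene was represented by its promoter peak of highest fold. Across the 30 members, the median height was 39.8 in parental replicate 1, 32.6 in parental replicate 2, 74.0 in TKO replicate 1 and 74.7 in TKO replicate 2. The means of these medians were 36.2 ± 5.04 and 74.3 ± 0.486 (SD, n = 2 libraries), and the ratio of geometric means was 2.06 (exact permutation test, two-sided, p = 0.333, the smallest this design allows). The 2 groups of libraries did not overlap. By gene, both TKO values lay above both parental values at 30 of 30 members, but the same held for 96.9% of the 1843 genes bound in all 4 lists, so the share of members was near that background.

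**Figure D2:**
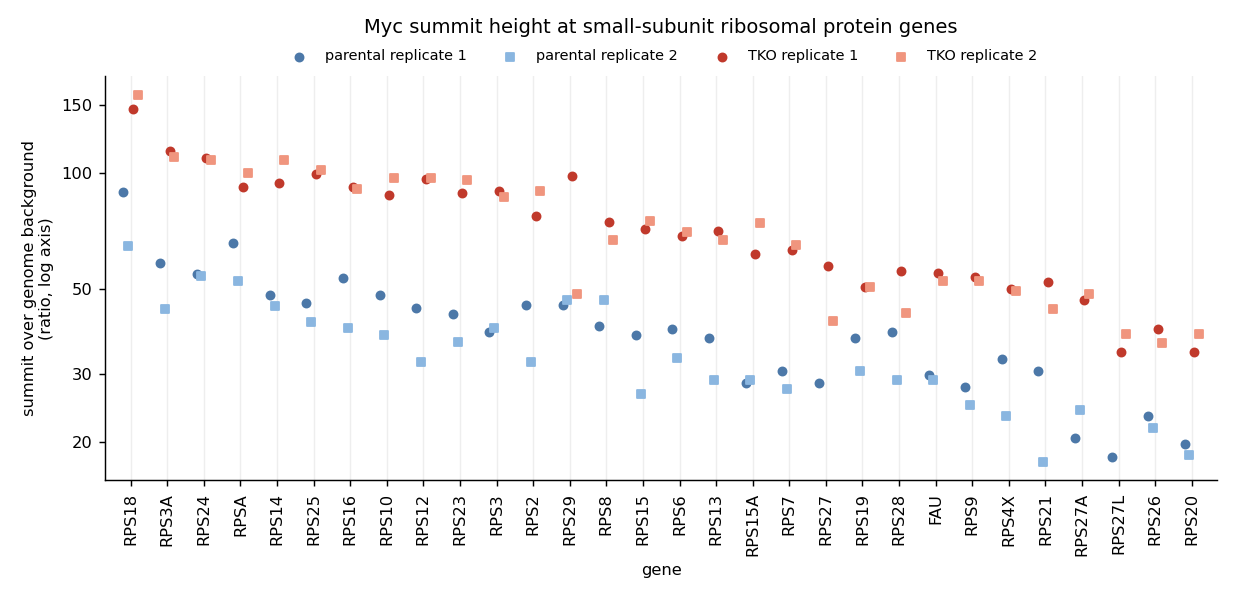
Summit over genome background (vertical log axis) at 30 of the 33 members with a promoter peak (horizontal axis, ordered by mean height), 1 point per library. TKO points lie above parental points at each of the 28 genes shown that were bound in all 4 lists, and RPS18 has the highest summit in every library.

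The TKO to parental ratio had a median of 2.02 over the 30 members and ran from 1.47 to 2.55. Its median was 2.03 over 44 RPL genes and 1.94 over all 1843 genes bound in all 4 lists. Summit reads per M use the same reads and differ from height only by a constant for each library. On that scale the medians were 2.65 for members and 2.55 for all genes. Both TKO values were above both parental values at 30 of 30 members and 99.0% of genes. The authors' fold, which divides by the local background, gave a median ratio of 2.43 for members and 1.998 for all genes. Head genes and body and platform genes had the same median ratio, 2.02 in each, over 13 and 17 genes.

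The largest ratios were those of RPS12, RPS15A and RPS23. RPS12, a protein of the beak of the head, had heights of 44.5 and 32.2 in the parental libraries and 96.7 and 96.8 in the TKO libraries, a ratio of 2.55. RPS15A, a body protein, had 28.45 and 29.01 in the parental libraries and 61.7 and 74.2 in the TKO libraries, a ratio of 2.35. RPS23, which lies at the decoding centre, had 43.0 and 36.3 against 88.5 and 95.8, a ratio of 2.33. Parental and TKO values did not overlap at any of these genes, as at all 30 members and at 96.9% of genes bound in all 4 lists.

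The smallest ratios were those of RPS28, RPS29 and RPS19. RPS28, a small protein near the mRNA exit, had heights of 38.7 and 29.0 in the parental libraries and 55.8 and 43.2 in the TKO libraries, a ratio of 1.47. RPS19, the gene most often mutated in Diamond-Blackfan anaemia, had 37.2 and 30.6 against 50.6 and 50.5, a ratio of 1.497. RPS29, a zinc-finger protein of the head, had 45.2 and 46.7 in the parental libraries and 98.1 and 48.4 in the TKO libraries, a ratio of 1.499. The low value of RPS29 in TKO replicate 2 was not at the same start site. There the peak of highest fold lay at −12477 bp from the MANE Select start, where the LRR1 gene also begins, and the peak at the MANE Select start had 82 summit reads and a height of 84.4. Taking for every gene the peak nearest to a start site gave a ratio of 2.13 over the members.

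RPS18, a head protein that contacts the large subunit, had the highest summit of all members in every library. It had 122 and 80 summit reads in the parental libraries and 197 and 155 in the TKO libraries, with exact Poisson intervals of 101.3 to 145.7, 63.4 to 99.6, 170.4 to 226.5 and 131.6 to 181.4 reads. The heights over background were 89.0, 64.5, 146 and 160. RPS20, a head protein, was among the lowest, with 27, 23, 46 and 37 summit reads and heights of 19.7, 18.5, 34.2 and 38.1. The heights ran from 19.7 to 89.0 in parental replicate 1 and from 34.2 to 146 in TKO replicate 1, so the spread among members was wider than the difference between the cell lines. The order of the 30 genes by height was alike across libraries. Spearman's rho across genes was 0.895 between the parental libraries, 0.859 between the TKO libraries and 0.756 to 0.878 between a parental and a TKO library. These are descriptions across genes, which share libraries and are not replicates.

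RPS21, a small protein that sits beside RPSA on the 40S subunit and that the study also examined singly, had 42 and 22 summit reads in the parental libraries and 70 and 43 in the TKO libraries. Its heights were 30.6 and 17.7 in the parental libraries and 52.0 and 44.3 in the TKO libraries, a ratio of 2.06. The TKO values were above the parental ones, although the parental libraries differed widely from each other. The summits lay at −26, −78, −60 and −18 bp from a start site, outside the MANE Select transcript in all 4 libraries. In TKO replicate 1 the peak covered chr20:60961787-60962278.

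Relative to the other peaks of the same list, members ranked in the upper part in the parental libraries and near the top in the TKO libraries. The measure is the percentile by the authors' fold within the list, where 100 is the highest. The median over members with a peak was 72.7, 69.2, 96.9 and 97.8 in parental replicates 1 and 2 and TKO replicates 1 and 2. Over all genes with a promoter peak it was 56.8 in each parental list and 71.0 and 70.6 in the TKO lists. The highest 10% of a list took in 5 of 33 and 8 of 30 members in the parental libraries and 31 of 33 and 29 of 33 in the TKO libraries. The corresponding shares over all bound genes were 13.2%, 14.7%, 22.0% and 20.9%. The member shares were 15.2%, 26.7%, 93.9% and 87.9%. Among the 1843 genes bound in all 4 lists, 16.9%, 19.8%, 70.3% and 67.4% were in the highest 10%, against 5, 8, 28 and 27 of the 30 such members.

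Over the 30 members bound in all 4 lists, the mean of the median percentiles was 72.6 ± 4.75 in the parental libraries and 97.4 ± 0.668 in the TKO libraries (SD, n = 2 libraries). The difference of 24.8 points had the smallest p this design allows (exact permutation test, two-sided, p = 0.333), and the groups did not overlap. Over all 1843 genes bound in all 4 lists the medians were 63.1 and 63.6 in the parental libraries and 95.1 and 94.7 in the TKO libraries, a difference of 31.6 points, larger than that of the members. Both TKO percentiles were above both parental ones at 27 of 30 members, against 83.2% of genes bound in all 4 lists. RPS28 and RPS3 were among the exceptions. The lists differ in length, and a percentile is read against the list it comes from. With each list reduced to its 3720 highest peaks by fold, only 21 members were bound in all 4 lists. The difference over those 21 was 9.36 points. With the full lists and all 30 members, the difference was 13.2 points by −log10 p. By summit pileup, an order chosen after the data were seen, it was 10.5 points over the 30.

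**Figure D3:**
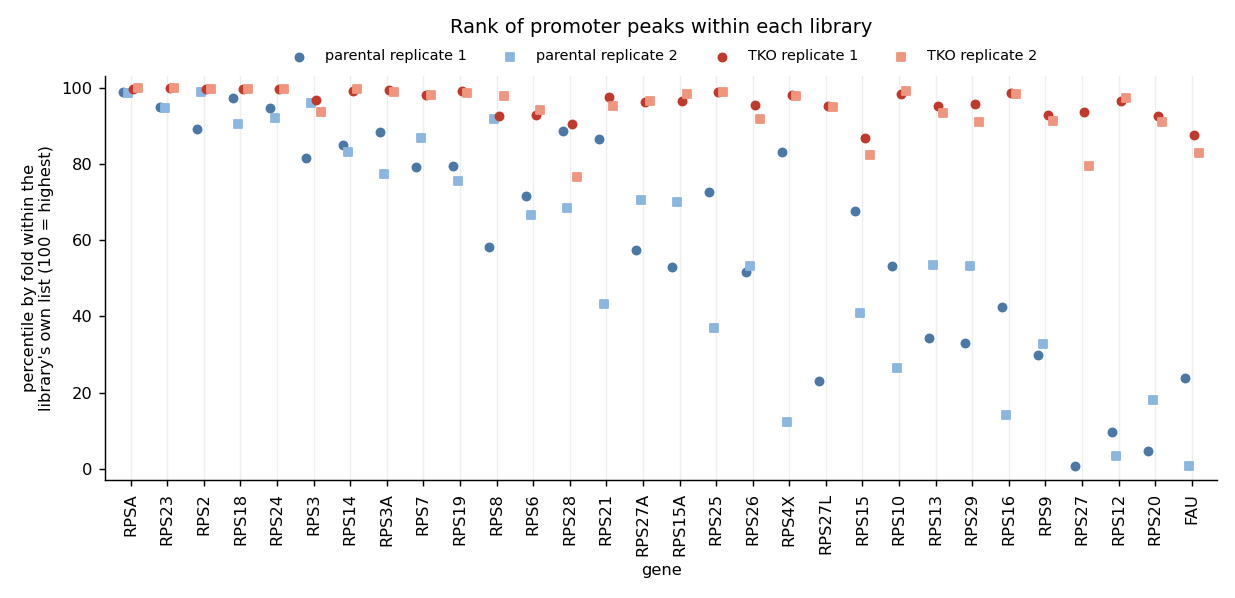
Percentile by fold within each library's own list (vertical axis, 100 is the highest) at 30 of the 33 members with a promoter peak (horizontal axis, ordered by mean percentile), 1 point per library. TKO points lie between 76.7 and 99.9, whereas parental points run from 0.699 to 99.0.

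RPSA, RPS23, RPS2 and RPS18 were among the 5 members of highest mean percentile. RPSA, which encodes a platform-side protein also known as a laminin receptor, stood at 98.8 and 98.7 in the parental libraries and 99.8 and 99.9 in the TKO libraries. Its summits held 90, 65, 124 and 97 reads, and in TKO replicate 1 the peak covered chr3:39447902-39448810. RPS23 stood at 95.1, 94.8, 99.9 and 99.9. RPS2, a protein of the mRNA entry channel, stood at 89.1, 99.0, 99.8 and 99.8, and RPS18 at 97.4, 90.5, 99.6 and 99.6.

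The 5 members of lowest mean percentile were FAU, RPS20, RPS12, RPS9 and RPS16, and each stood lower in both parental libraries than in both TKO libraries. In the TKO libraries all but RPS16 were also below the member medians of 96.9 and 97.8, RPS12 only slightly. FAU, which encodes a ubiquitin-like protein fused to the ribosomal protein eS30, stood at 23.9 and 0.874 in the parental libraries and 87.5 and 83.0 in the TKO libraries. RPS20 stood at 4.81 and 17.96 against 92.5 and 91.1. RPS12 stood at 9.65 and 3.40 against 96.6 and 97.5. RPS9, a body protein, stood at 30.01 and 32.7 against 93.0 and 91.4. RPS16, whose tail reaches toward the P-site tRNA, stood at 42.5 and 14.2 against 98.7 and 98.3. RPS27, bound in 3 lists, stood at 0.699 in parental replicate 1 and 93.7 and 79.5 in the TKO libraries. Median mean percentiles were 76.9 for 13 head genes and 85.2 for 17 body and platform genes.

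A low percentile did not mean a low summit. RPS12 had 61 summit reads in parental replicate 1, more than the member median of 54.5, and RPS16 had 73. Their local backgrounds there were 11.3 and 9.58 times the genome background, and the authors' fold of RPS12 was 3.72 in parental replicate 1 and 3.15 in parental replicate 2 against 14.4 and 15.1 in the TKO libraries. Ranked by summit pileup, the members' median percentiles were 89.4, 85.9, 98.5 and 98.0. The local background over the genome background at the 30 members had medians of 5.23 and 4.85 in the parental libraries and 4.20 and 3.76 in the TKO libraries. For all genes bound in all 4 lists these were 3.48, 3.66, 3.28 and 3.26. Both TKO local backgrounds were below both parental ones at 21 of 30 members, against 44.4% of genes, and above them at 4 members, against 27.9%. Local background moved with the percentile, and its part in the percentile difference was not tested beyond the rankings by −log10 p and by summit pileup given above.

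**Figure D4:**
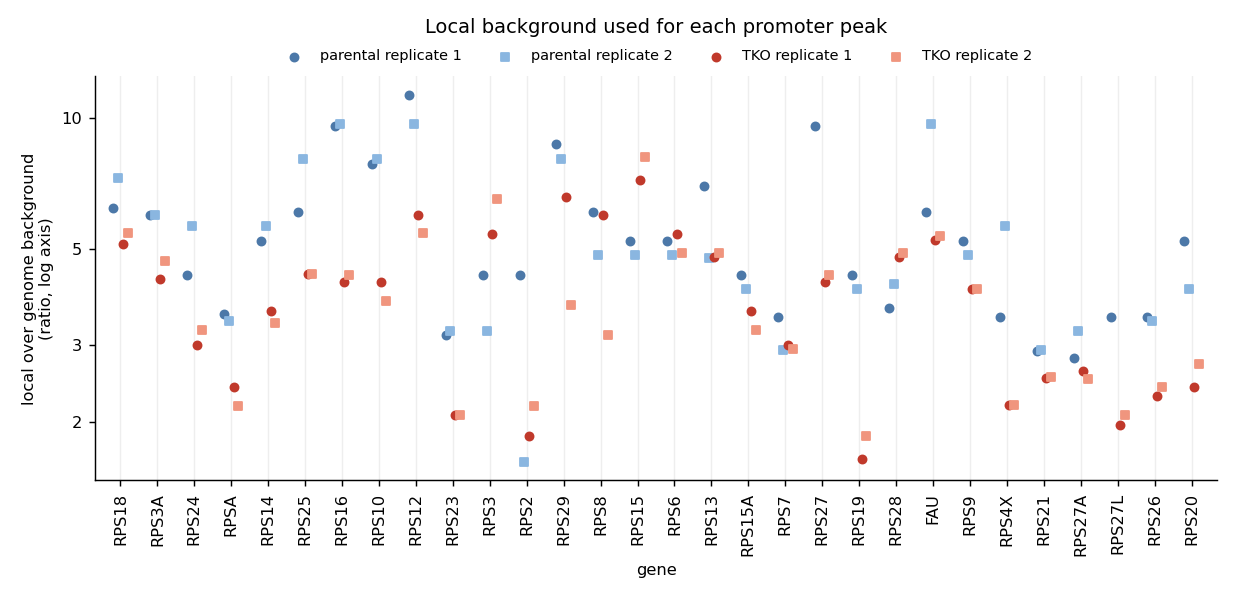
Local background over genome background (vertical log axis) for the promoter peak of 30 of the 33 members (horizontal axis, ordered by mean summit height), 1 point per library. Parental values of RPS12 and RPS16 lie between 9.58 and 11.3 and their TKO values between 4.20 and 5.999.

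Promoter peaks at the members were wider in the TKO libraries. The median width at the 30 members was 438.5 and 398.5 bp in the parental libraries and 961.5 and 955 bp in the TKO libraries. The means of these medians were 418.5 ± 28.3 bp and 958 ± 4.596 bp (SD, n = 2 libraries), with a ratio of geometric means of 2.29 (exact permutation test, two-sided, p = 0.333). All 30 members were wider in both TKO libraries than in both parental ones, as were 98.6% of genes bound in all 4 lists. Over those 1843 genes the median widths were 270 and 273 bp in the parental libraries and 822 and 788 bp in the TKO libraries, a ratio of 2.96, above that of the members. The narrowest peak of each whole list was 140, 151, 182 and 201 bp, so widths also differ by the fragment length of the library, and the part of that in the difference was not tested. RPS12 had the widest member peak of TKO replicate 1, at 2112 bp (chr6:133134312-133136423), against 693 and 592 bp in the parental libraries. RPS28 had the largest change, from 248 and 257 bp to 1045 and 1136 bp, a ratio of 4.32.

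Summits sat close to the start sites. Distances are to the nearest of a gene's basic start sites, and those from the MANE Select start alone were equal or larger. Within 100 bp of a basic start site lay 28 of 33, 28 of 30, 27 of 33 and 27 of 33 member summits, which is 84.8%, 93.3%, 81.8% and 81.8%. Over all bound genes the shares were 47.8%, 47.8%, 37.8% and 39.1%. The median distance at the 30 members was 26 and 51 bp in the parental libraries and 61 and 37.5 bp in the TKO libraries, against 104 to 113 bp over all genes bound in all 4 lists. The means, 38.5 ± 17.7 bp and 49.3 ± 16.6 bp (SD, n = 2 libraries), differed by 10.8 bp, less than the spread between libraries (exact permutation test, two-sided, p = 0.667). The direction of that difference turned when parental replicate 1 (a difference of −1.75 bp) or TKO replicate 1 (−1 bp) was left out. No member summit used here was farther than 493 bp from a start site, and no member without a promoter peak had a peak closer than 22890 bp.

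By the MANE Select transcript of each gene, 10, 12, 8 and 7 member summits lay outside the transcript in parental replicates 1 and 2 and TKO replicates 1 and 2. A further 14, 11, 20 and 18 lay in an intron, 8, 5, 2 and 5 in an exon part that is untranslated, and 1, 2, 3 and 3 in coding sequence. These places were not counted over all bound genes. Relative to the nearest basic start site, 19 of 33, 18 of 30, 23 of 33 and 22 of 33 member summits were on the transcribed side. Over all bound genes the counts were 918 of 2418, 832 of 2550, 4303 of 9719 and 4293 of 9843. The RPL genes had 39 of 47, 33 of 44, 40 of 48 and 38 of 48, so the lean was not particular to the members. Between libraries, the summits of the same gene were 24.5 to 56 bp apart in the median over the 6 pairs of libraries, against 33 to 43 bp over all genes bound in all 4 lists. The widest gaps were at RPS29, with up to 12582 bp between different start sites, and RPS27A, with up to 475 bp.

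RPS12 had its summits farther upstream in every library, at −310, −327, −263 and −221 bp from its start site. It faces SLC18B1, and in 3 of the 4 libraries, all but TKO replicate 2, its summit was within 1 kb of a start site of both genes, so that peak cannot be given to either.

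**Figure D5:**
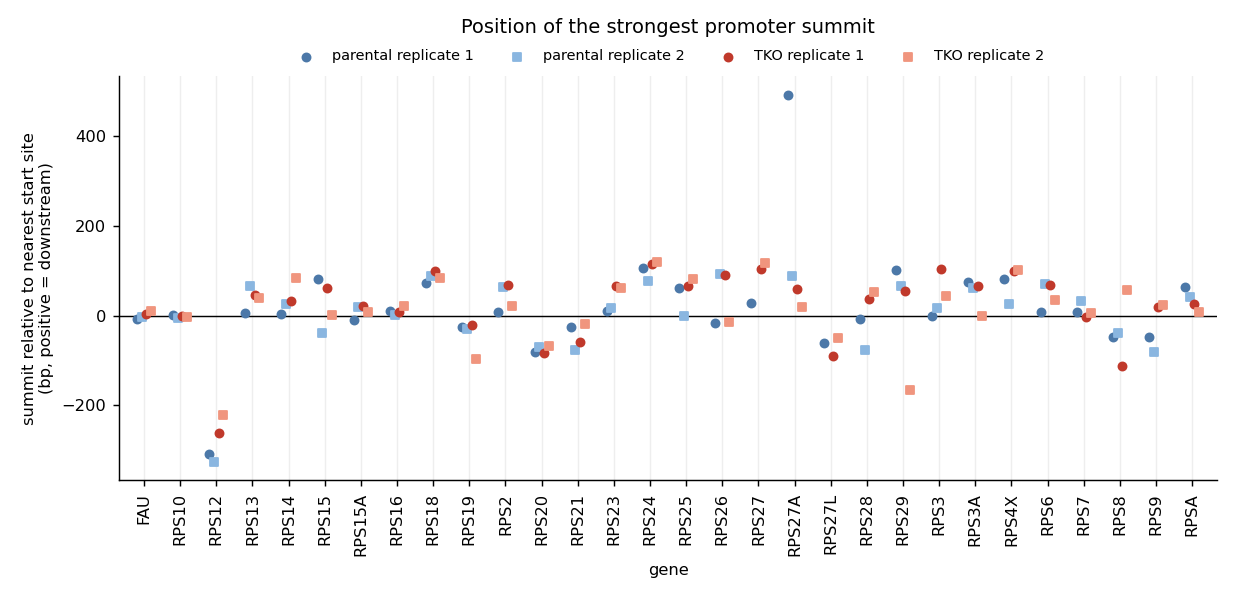
Distance of the promoter summit of highest fold from the nearest basic start site (vertical axis, bp, positive is downstream) at 30 of the 33 members with a promoter peak (horizontal axis, in alphabetical order), 1 point per library. Most points lie within 100 bp of 0, RPS12 lies between −327 and −221 bp in all 4 libraries, and RPS27A stands at 493 bp downstream in parental replicate 1.

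Another protein-coding gene began within 1 kb of the same summit at 8 members in at least 1 library. The pairs were FAU with MRPL49, RPS10 with the readthrough gene RPS10-NUDT3, RPS12 with SLC18B1, RPS18 with VPS52, RPS25 with TRAPPC4, RPS27A with CLHC1, RPS28 with NDUFA7 and RPS29 with LRR1. In each library 7 members shared their summit, a share of 21.2% or 23.3%, against 31.5% and 31.7% of bound genes in the parental libraries and 24.4% and 24.7% in the TKO libraries. At these genes the occupancy belongs to the shared region and not to the ribosomal protein gene alone. The median GC content within 100 bp of the summit was 62.7% to 63.2% at members and 63.2% to 64.7% at all bound genes.

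The E-box CACGTG, which reads the same on both strands, was rare near the member summits. A copy was found no more than 50 bp from the summit at 3 of 33, 0 of 30, 1 of 33 and 1 of 33 members, or 9.09% (exact 95% interval 1.92% to 24.3%), 0% (0 to 11.6%), 3.03% and 3.03% (0.0767% to 15.8% in each TKO library). Over all genes with a promoter peak the shares were 21.6% and 18.5% in the parental libraries and 9.14% and 8.10% in the TKO libraries. RPL genes had 2 of 47, 1 of 44, 2 of 48 and 1 of 48. The 40S assembly and partner genes had 4 of 12, 5 of 12, 5 of 19 and 10 of 20. The member mean was 4.55% ± 6.43 in the parental libraries and 3.03% ± 0 in the TKO libraries (SD, n = 2 libraries), a difference of −1.52 points within the spread (exact permutation test, two-sided, p = 1). Left out, parental replicate 1 turned the direction, to a difference of 3.03 points.

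No member had the E-box near its summit in every library. Those that had it in at least 1 were RPS2 and RPS28, in 2 lists each, and RPS27A, in 1. At RPS2 the E-box centre was 12.5, 67.5, 71.5 and 24.5 bp from the summits of parental replicates 1 and 2 and TKO replicates 1 and 2, and at RPS28 it was 4.5, 74.5, 40.5 and 56.5 bp. The motif stayed near the summits in both, and the window of 50 bp decided the count. At RPS27A it was 32.5 bp from the summit in parental replicate 1 only, where the peak of highest fold was a second peak 493 bp downstream with 28 reads, while the peak 14 bp upstream of a start site had 43. In the other libraries the summits were 371.5 to 442.5 bp from it. RPSA had an E-box 87.5, 109.5, 125.5 and 143.5 bp from its summits, and FAU, RPS19 and RPS23 had a copy 100.5 to 260.5 bp from theirs in every library. The 7 sites are printed, 30 bases each on the sense strand with the E-box in capitals, since these genes had the copies closest to a summit.
RPS2: tttccgacaaaaCACGTGagtcctgttggt
RPS28: ctctccccgaagCACGTGactcctctccgc
RPS27A: gccgggtgcgagCACGTGtggccctgcggc
RPSA: gcctgcggcccgCACGTGgccaggctcggg
FAU: cctggccttcccCACGTGagccgccgcgac
RPS19: tagagccgcggcCACGTGcgagcggcaggc
RPS23: cgctccaggaggCACGTGgtccggcgcgga
They lie at chr16:2014793-2014822 (-) for RPS2, chr19:8386362-8386391 (+) for RPS28, chr2:55460270-55460299 (+) for RPS27A, chr3:39448393-39448422 (+) for RPSA, chr11:64889398-64889427 (-) for FAU, chr19:42364473-42364502 (+) for RPS19 and chr5:81573978-81574007 (-) for RPS23, in GRCh37. From the MANE Select start the E-box centre was 19 bp downstream at RPS2, 3 bp upstream at RPS28, 460 bp at RPS27A, 196 bp at RPSA, 193 bp at FAU, 162 bp at RPS19 and 180 bp at RPS23, all downstream in the last 5.

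Matches to the other motifs were few. The ETS motif CCGGAAGT, searched on both strands, lay within 50 bp of the summit at 1 member in each of 3 libraries and at none in TKO replicate 2, against 3.07% to 5.00% of bound genes per library. The AP-1 motif (TGACTCA or TGAGTCA) lay near no member summit, against 1.45% to 2.27% of bound genes. In the RefSeq promoter table, which spans 250 bases before to 50 after a gene start, 28 of the 35 members were matched by symbol. The E-box was in 2 of these promoters, RPS19 and RPS28 (7.14%), against 10.97% of 15281 promoters, and the ETS motif was in 5 (17.9%), against 7.11%. A match is a description of the letters and not of a bound site.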

How the data were processed

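Myc ChIP-seq was done in 4 libraries of MDA-MB-231 cells, 2 parental and 2 TKO, grouped by the sample titles, which also number the replicates. Single-end reads had been aligned by the authors to hg19 with NovoAlign, and peaks were called per library with MACS2 against input. Per the labels, the submitters' processing notes name Novoalign 3.08.02 and MACS2 2.1.1.20160309. Each deposited list gives the authors' fold enrichment (a ratio), −log10 p-value, −log10 q-value, a score derived from q, and the summit. The lowest −log10 q was 2.03 to 2.07. Handling of duplicates is not given in the sources used here. The members and the other lists were chosen with earlier results of these data known.

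A summit was given to a gene when it lay within 1 kb of any of its basic start sites (55869 in all), and the peak of highest fold represented the gene in a library. MACS2 derives fold and p from summit reads and local background, so both were solved for, and whole reads matched the −log10 p within 0.002 for 100% of peaks. Tested on simulated data, 100% and 99.95% of 2000 summits were recovered at scale factors of 1 and 0.84. Depth assumes 2700000000 bases and an extension equal to the narrowest peak. Exact two-sided permutation tests compared 2 libraries with 2. Intervals of shares are Clopper-Pearson at 95%. Genes described in every library were members lacking a promoter peak somewhere, the 5 highest and 5 lowest by mean percentile, the 3 largest and 3 smallest ratios of summit height, members with an E-box near every summit (there were none) and RPS21. Versions were scipy 1.17.1, numpy 2.4.6, pysam 0.24.0, pandas 2.3.3, matplotlib 3.10.9 and Python 3.11.15. Individual values of 3 members are not reported here, although counts and medians include them. The input libraries had no peak list used here. Alternatives changed the start-site window, the threshold on q and on fold, the list length, the ranking, the peak chosen, the motif and its window, the scaling and the libraries included.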

Additional observations from a re-analysis of the deposited data

How the results depend on the processing

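Of 73 recomputed values, 67 kept their direction, 2 showed no difference and 4 reversed. The reversals were all in differences that lay within the spread between libraries. Among the 67, the values with a start-site window of 500 bp could not change, since no member summit used here lay farther out. Most of the values with the replicate block could not change either. Those without a difference were the ratio of bound members without parental replicate 2 (1.0) and the difference in E-box share at the summit nearest to a start site (0 points). The difference in distance to the start site ran from −1.75 to 26.0 bp when a library was left out, with −1.75 bp without parental replicate 1 and −1 bp without TKO replicate 1. The difference in E-box share ran from −6.06 to 3.03 points, with 3.03 points without parental replicate 1, and it was 1.36 points with a window of 500 bp around the summit, which was chosen after seeing the data. No p could fall below 0.333, so no call could be gained or lost, and the summits of the 30 members held 22 to 197 reads. The ratio of bound members was 1.47 at a fold of at least 5 and 1.11 with lists of equal length. Other genes were not counted at these settings. The height ratio ran from 1.83 to 2.28 without a library and was 2.71 by reads per M.

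Gene by gene, the deviations of libraries with the same replicate number had a correlation near none (r = −0.0493 across 30 genes). This r cannot show a shift that all genes share, so whether such libraries share a batch was not tested. With the replicate block the ratio of bound members was 1.05, and the other 5 values equalled those without it (24.8 points, 10.8 bp, 2.29, −1.52 points and 2.06). With 2 libraries in each group those 5 are equal by arithmetic, so their equality tests nothing.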
